A study of Mus musculus with 4 samples.

Results

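The antioxidant genes described here are 39 genes that act downstream of, or around, the transcription factor Nrf2: its regulators and classical targets, glutathione synthesis, thioredoxins, peroxiredoxins, superoxide dismutases, catalase and the enzymes that supply NADPH. Members were all probes whose gene name in the scanner files equalled a listed symbol, which gave 66 of 56605 probes on the array and 39 of 37074 gene names. Glutathione transferases were not included. Of the 66 probes, 56 were well above background on all 4 arrays and 9 on none. Of the 39 genes, 38 were present (P flag, as defined below) on at least 1 array, and all 38 were tested in every comparison. The exception was *Slc7a11*, the cystine importer of the plasma membrane, whose 4 probes were not well above background on any array.

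RNA came from whole pieces of heart tissue of female *C57BL/6J* mice, aged 6 weeks in the labels, and was hybridised to 4 single-colour Agilent arrays on 1 slide. All mice received intraperitoneal injections on 2 days, and hearts were taken 3 h after the last dose. The NS mice received normal saline alone, the CY mice cyclophosphamide at 400 mg/kg, and the acrolein mice acrolein at 5 mg/kg. The NAC + CY mice received the thiol N-acetylcysteine (NAC) at 200 mg/kg ahead of CY at 400 mg/kg. Each condition is 1 array, although 3 independent studies are mentioned in the series text, and whether an array holds 1 mouse or a pool is not given in the sources used here. CY and NAC were dissolved in saline and acrolein in water, so the acrolein array differs from NS by its vehicle as well, and no array of NAC alone was analysed. CY is a prodrug that is turned into an alkylating mustard and the reactive aldehyde acrolein, and NAC is a thiol that can scavenge acrolein.

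As background, Nrf2 (*Nfe2l2*) is held in the cytosol by its adaptor Keap1, which marks it for degradation. Electrophiles and oxidants modify cysteines of Keap1, whereupon Nrf2 accumulates, pairs with a small Maf protein in the nucleus and binds antioxidant response elements next to its target genes. The targets make and recycle glutathione and thioredoxin, reduce quinones and carbonyls, and supply the NADPH that these reductions consume. The heart, rich in mitochondria, depends on the same thiol systems to dispose of hydrogen peroxide.

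Values are log2 signals after quantile normalisation over the 4 arrays, and log2 ratios are differences of those signals between 2 arrays. Each gene is represented by its brightest present probe. By the criteria of the study, a gene was called higher when its ratio reached 1.5 and its intensity-based Z-score reached 2, and lower when its ratio was 0.66 or less and its Z-score -2 or less. The Z-score is the distance of a log2 ratio from the mean of the 200 probes nearest in signal, in units of their SD. At least 47.1% of the probes of each array were well above background, and repeated spots of a probe differed by a pooled SD of 0.056 to 0.064 log2 units within an array. The median SD of the Z-score windows was 0.58 log2 units for CY against NS, 0.22 for acrolein against NS, 0.54 for NAC + CY against NS and 0.41 for NAC + CY against CY. Since each condition has 1 array, differences were not checked against replicates and carry no p-value. A call compares 2 arrays and does not separate a treatment from a difference between individual hearts.

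The pieces of heart were not alike in their other cells. The labelled tissue was borne out by its markers, as all 8 cardiomyocyte genes (*Myh6*, *Tnnt2* and others) were well above background on the 4 arrays, with a summed signal of 0.965 to 1.03 times that of NS. Hepatocyte genes summed to 6.22 times the NS level on the NAC + CY array, where 7 of 8 were called higher, and to 0.787 times on the acrolein array. On the CY array they summed to 3.35 times, mostly through *Ahsg* (log2 signal 12.77 against 10.19 on NS), with 2 of 4 tested called higher. Albumin (*Alb*) had a log2 signal of 11.88 after NAC + CY against 2.21 after saline, 1.47 after CY and 1.45 after acrolein, and was well above background only on NAC + CY. On the CY array atrial muscle genes summed to 3.19 times the NS level (5 of 6 called higher), mesothelial genes to 2.98 times (7 of 8) and platelet genes to 2.66 times (7 of 7). Erythroid genes summed to 1.02 times NS after CY, 0.771 times after acrolein and 0.446 times after NAC + CY, where 4 of 5 tested were called lower. In such bulk samples a change in the number of cells of a type and a change of RNA per cell cannot be told apart. The part of these other cells in the values of the antioxidant genes was not tested.

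After CY, 10 of the 38 antioxidant genes (26.3%) were called higher and none lower. Among all 19721 genes tested in this comparison, 3.38% were called higher and 2.82% lower. The higher members were *Osgin1*, *Ephx1*, *Cbr3*, *Gclm*, *Gclc*, *Gsr*, *Srxn1*, *Txnrd1*, *Gpx3* and *Cat*, which span glutathione synthesis, the thioredoxin system, peroxide removal and the reduction of carbonyls. The median log2 ratio of the 38 genes was 0.44, against -0.02 over all genes. Among the 38, 29 (76.3%) had a log2 ratio above 0, against 48.3% of all genes. By the ratio criterion alone, 16 of 38 (42.1%) were at least 1.5-fold higher, against 11.7% of all genes, and 2 were at most 0.66-fold, against 10.7%. Acrolein and NAC + CY, described further on, were set against the same NS array.

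**Figure D1:**
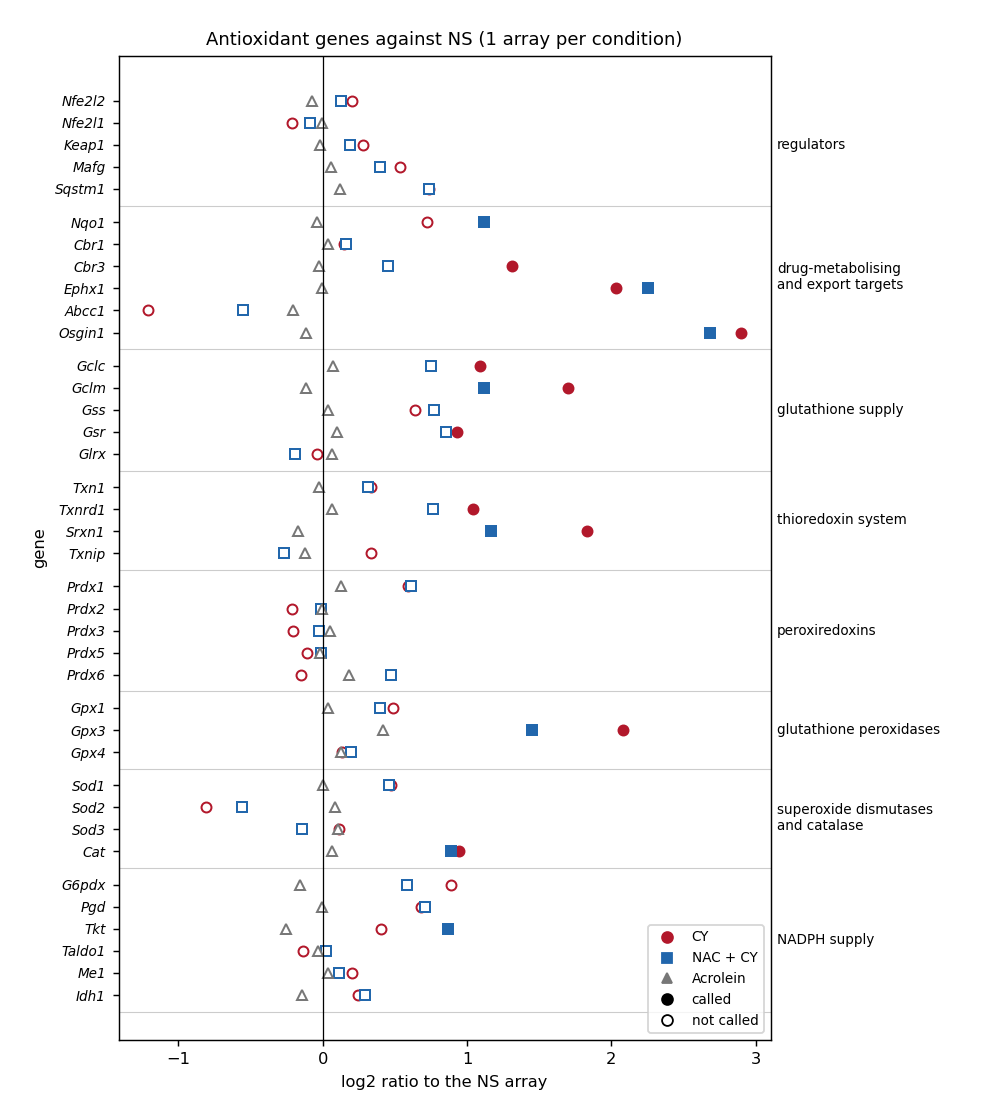
Log2 ratio to the NS array (horizontal axis) of the 38 antioxidant genes that were present on at least 1 array, 1 row per gene grouped by role, with circles for CY, squares for NAC + CY and triangles for acrolein. Filled symbols were called at the criteria of the study. There is 1 array per condition and no error bar. The CY points reach 2.90 for *Osgin1*, and the acrolein points lie between -0.26 and 0.42.

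Of the 6 targets that metabolise or export drugs or mark Nrf2 activity, 3 were called higher after CY, and the group held the largest log2 ratio of the 38 genes. *Osgin1*, an oxidative stress response gene and growth inhibitor, had log2 signals of 6.85 after saline, 9.75 after CY, 6.74 after acrolein and 9.54 after NAC + CY. The CY and NAC + CY arrays were high and close to each other, and acrolein was at the level of NS. The log2 ratio after CY was 2.90 (7.46-fold, Z-score 5.10), which ranked 56 of 19721 genes by Z-score. *Ephx1*, the microsomal epoxide hydrolase, had log2 signals of 12.07 after saline, 14.10 after CY, 12.06 after acrolein and 14.32 after NAC + CY. It was 4.09-fold higher after CY, at the top Z-score of the group (5.14, rank 53), and NAC + CY was the highest of the 4 arrays. *Ephx1* is abundant in liver. On the CY array the hepatocyte genes *Ttr* (log2 ratio 2.98) and *Ahsg* (2.57) were called higher, 2 of 4 tested. The other 2, *Apoa2* (-0.26) and *Serpina1a* (-1.01), were below NS without a call, and *Alb* was not well above background. The part of hepatocyte RNA in the *Ephx1* value was not tested. *Cbr3*, a carbonyl reductase, had log2 signals of 8.67 after saline, 9.98 after CY, 8.65 after acrolein and 9.12 after NAC + CY. Here the CY array stood apart from the other 3, at 2.48-fold of NS (log2 ratio 1.31, Z-score 2.32).

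Its relative *Cbr1* had a log2 ratio of 0.15 after CY and was not called. *Nqo1*, the quinone reductase that serves as a standard readout of Nrf2, had log2 signals of 10.19 after saline, 10.91 after CY, 10.15 after acrolein and 11.31 after NAC + CY. CY and NAC + CY were both above NS, but only the latter was called (log2 ratio 1.12, Z-score 2.20). After CY its log2 ratio was 0.72 with a Z-score of 1.66. *Abcc1*, a transporter that exports glutathione conjugates, had a log2 ratio of -1.21 after CY, with a Z-score of -1.83 that missed the call. The probes of these genes lay, on mouse build mm9 as given in the array files, at chr8:121970077-121970136 for *Osgin1*, chr1:182919689-182919748 for *Ephx1* and chr8:109912440-109912499 for *Nqo1*.

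**Figure D2:**
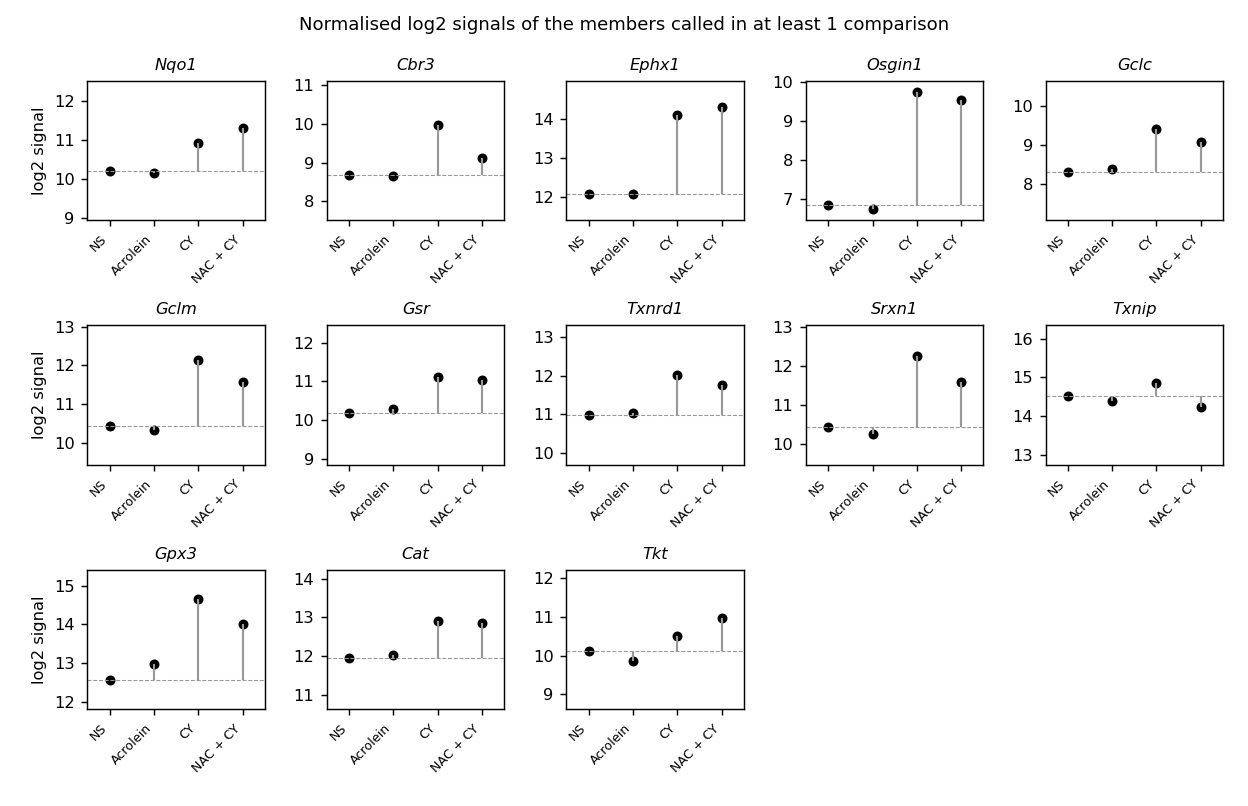
Normalised log2 signal (vertical axis, 3.6 units high in every panel) of the 13 antioxidant genes called in at least 1 comparison, for the NS, acrolein, CY and NAC + CY arrays (horizontal axis). Each point is 1 array, the dashed line is the NS level and the grey bars are the distances from it. In 12 of the 13 panels the CY and NAC + CY points both lie above NS, the exception being *Txnip*. Those 12 genes were chosen by calls on CY or NAC + CY against this same NS array. Their position above NS therefore follows in part from that choice, and nothing is read from the count.

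Because several of these genes were high together, their promoters were searched for the letters that Nrf2 and small Maf proteins are known to bind. The RefSeq promoter table (GRCm38.p6) held 47 windows for 34 of the 39 genes, not for *Gclc*, *Gsr*, *Abcc1*, *Prdx6* and *Sod3*. Only the 250 bases before each start site were read, on both strands, for TGACNNNGC and TGAGNNNGC, with N any base. The sequences below hold a match in *Osgin1*, *Srxn1* and *Gclm*, called higher after CY, and in *Prdx1*, which lay just under the Z-score criterion. *Txnrd1*, also called higher after CY, holds a match that is not shown. Capitals mark the match, which reads in the gene's direction for the second *Srxn1* window and on the opposite strand elsewhere.
Osgin1 (chr8:119437028-119437076, plus strand): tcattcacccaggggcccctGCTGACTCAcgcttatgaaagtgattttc
Srxn1 (chr2:152105346-152105394, plus strand): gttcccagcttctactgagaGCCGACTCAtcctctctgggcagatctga
Srxn1 (chr2:152105459-152105507, plus strand): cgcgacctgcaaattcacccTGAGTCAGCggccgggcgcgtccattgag
Gclm (chr3:122245403-122245451, plus strand): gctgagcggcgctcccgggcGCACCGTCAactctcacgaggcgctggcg
Prdx1 (chr4:116685446-116685494, plus strand): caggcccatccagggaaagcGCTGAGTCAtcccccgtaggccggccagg

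The match of *Osgin1* ended 90 bases before its start site, those of *Srxn1* 149 and 36 bases, that of *Gclm* 125 bases and that of *Prdx1* 124 bases. *Osgin1* and the second *Srxn1* window share the letters TGAGTCAGC, which also contain the AP-1 motif TGAGTCA and which 0.347% of all 32851 windows hold. *Prdx1* carries TGACTCAGC, which contains the same AP-1 motif read on the other strand and is held by 0.390% of windows. The looser TGACNNNGC occurred in 10.2% of all windows and in 7 of the 47 member windows (14.9%), those of *Nfe2l2*, *Mafg*, *Gclm*, *Txnrd1*, *Prdx1*, *Sod1* and *G6pdx*. TGAGNNNGC occurred in 14.4% of all windows and in 8 of the 47 member windows (17.0%), which belong to 5 genes. Of the 8 members called higher after CY that have a window, 2 held TGACNNNGC (*Gclm* and *Txnrd1*) and 2 held TGAGNNNGC (*Osgin1* and *Srxn1*). Neither set of letters was found in the windows of *Ephx1*, *Gpx3*, *Cat* and *Cbr3*. A match describes the letters only and is not a bound site.

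Transcripts of both subunits of the rate-limiting enzyme of glutathione synthesis were called higher after CY, and that of the synthetase was not. *Gclm*, the modifier subunit of glutamate-cysteine ligase, had log2 signals of 10.45 after saline, 12.15 after CY, 10.33 after acrolein and 11.57 after NAC + CY. CY was highest and NAC + CY intermediate, with a log2 ratio of 1.70 after CY (3.24-fold, Z-score 3.36). *Gclc*, the catalytic subunit, had log2 signals of 8.31 after saline, 9.41 after CY, 8.38 after acrolein and 9.07 after NAC + CY. The order of the arrays was the same as for *Gclm*, and the change smaller (log2 ratio 1.09, 2.13-fold, Z-score 2.28). *Gsr*, which reduces oxidised glutathione with NADPH, had log2 signals of 10.19 after saline, 11.12 after CY, 10.28 after acrolein and 11.04 after NAC + CY. Its call after CY was close to the threshold (log2 ratio 0.93, Z-score 2.16) and was lost with windows of 100 or 500 probes. *Gss*, glutathione synthetase, had a log2 ratio of 0.64 after CY (Z-score 1.51), and glutaredoxin (*Glrx*), which removes glutathione from proteins, one of -0.04. Neither was called.

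In the thioredoxin system, sulfiredoxin and thioredoxin reductase were called higher after CY and thioredoxin was not. *Srxn1*, sulfiredoxin, which restores over-oxidised peroxiredoxins, had log2 signals of 10.42 after saline, 12.25 after CY, 10.25 after acrolein and 11.59 after NAC + CY. It was 3.56-fold higher after CY (Z-score 3.81, rank 149 of 19721), and acrolein was the lowest of the 4 arrays. *Txnrd1*, the cytosolic thioredoxin reductase, had log2 signals of 10.98 after saline, 12.02 after CY, 11.05 after acrolein and 11.75 after NAC + CY. It was 2.06-fold higher after CY (Z-score 2.47), while its other probe, with a log2 ratio of 0.93, was not called. Thioredoxin itself (*Txn1*) had a log2 ratio of 0.34 and *Txnip*, its inhibitor, one of 0.33, and neither was called.

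The 5 peroxiredoxins reduce peroxides with electrons from thioredoxin or glutathione. None was called after CY, where 3.38% of all genes were called higher and 2.82% lower, and nothing is read from that count. *Prdx1*, the abundant cytosolic form, came nearest, with log2 signals of 15.04 after saline, 15.63 after CY, 15.17 after acrolein and 15.66 after NAC + CY. Its log2 ratio after CY was 0.59 and its Z-score 1.95, and all 3 of its present probes had ratios between 0.52 and 0.60. The other 4 had log2 ratios from -0.21 (*Prdx2*) to -0.11 (*Prdx5*), at Z-scores from -0.41 (*Prdx3*) to 0.03 (*Prdx6*). Dimmer probes of *Prdx2* and *Prdx6* had log2 ratios of 0.02 and 0.06. *Prdx1* thus stood above the other 4, which lay near the mean of probes of like signal.

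Glutathione peroxidases, superoxide dismutases and catalase differed member by member. *Gpx3*, the secreted plasma glutathione peroxidase, had log2 signals of 12.57 after saline, 14.65 after CY, 12.99 after acrolein and 14.02 after NAC + CY. All 3 treated arrays were above NS and CY was highest, at 4.24-fold (log2 ratio 2.08, Z-score 4.29, rank 94). *Cat*, catalase, had log2 signals of 11.96 after saline, 12.91 after CY, 12.03 after acrolein and 12.85 after NAC + CY. CY and NAC + CY were nearly equal, at 1.92-fold and 1.85-fold of NS. *Gpx1*, the main cytosolic peroxidase, and *Gpx4*, which reduces lipid peroxides, had log2 ratios of 0.49 and 0.14 after CY and were not called. *Sod1*, the copper-zinc dismutase of the cytosol, had a log2 ratio of 0.47. *Sod2*, the manganese dismutase of mitochondria, had log2 signals of 13.01 after saline, 12.20 after CY, 13.09 after acrolein and 12.45 after NAC + CY. CY and NAC + CY were both lower than NS and acrolein, but the Z-score after CY was -1.70 at a log2 ratio of -0.81, so *Sod2* was not called. The extracellular *Sod3* had a log2 ratio of 0.12.

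No NADPH-supplying enzyme was called after CY, where 3.38% of all genes were called higher and 2.82% lower. Of the 6, 5 had a log2 ratio above 0, against 48.3% of all genes, and nothing is read from either count. *G6pdx*, the entry enzyme of the pentose phosphate pathway, had log2 signals of 8.48 after saline, 9.38 after CY, 8.33 after acrolein and 9.07 after NAC + CY. Its log2 ratio after CY was 0.89 with a Z-score of 1.87. *Pgd*, the next dehydrogenase of the pathway, had one of 0.68 with a Z-score of 1.62. *Tkt*, transketolase, had log2 signals of 10.11 after saline, 10.51 after CY, 9.85 after acrolein and 10.98 after NAC + CY, and was called only on NAC + CY (log2 ratio 0.87, Z-score 2.35). Transaldolase (*Taldo1*), malic enzyme (*Me1*) and the isocitrate dehydrogenase *Idh1* had log2 ratios of -0.14, 0.20 and 0.25 after CY.

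None of the 5 regulators was called by its brightest probe in any comparison. At most 3.38% of all genes were called in either direction in any comparison, so nothing is read from this. *Nfe2l2*, which encodes Nrf2, had log2 signals of 11.05 after saline, 11.25 after CY, 10.98 after acrolein and 11.17 after NAC + CY. The spread over the 4 arrays was small, and the log2 ratio of 0.20 after CY was not called. A dimmer probe for another *Nfe2l2* transcript had a log2 ratio of 0.98 after CY and was called higher after NAC + CY, at 2.03, so the 2 probes disagree there. *Keap1* and the related factor *Nfe2l1* had log2 ratios of 0.28 and -0.21. *Mafg*, a partner of Nrf2, stood at a log2 ratio of 0.54 (Z-score 1.34). *Sqstm1*, an autophagy receptor that binds Keap1, had log2 signals of 14.05 after saline, 14.79 after CY, 14.17 after acrolein and 14.79 after NAC + CY. Its brightest probe reached a log2 ratio of 0.74 after CY (Z-score 1.94), just short of a call, and 1 of its 3 probes was called, at 0.96.

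**Figure D3:**
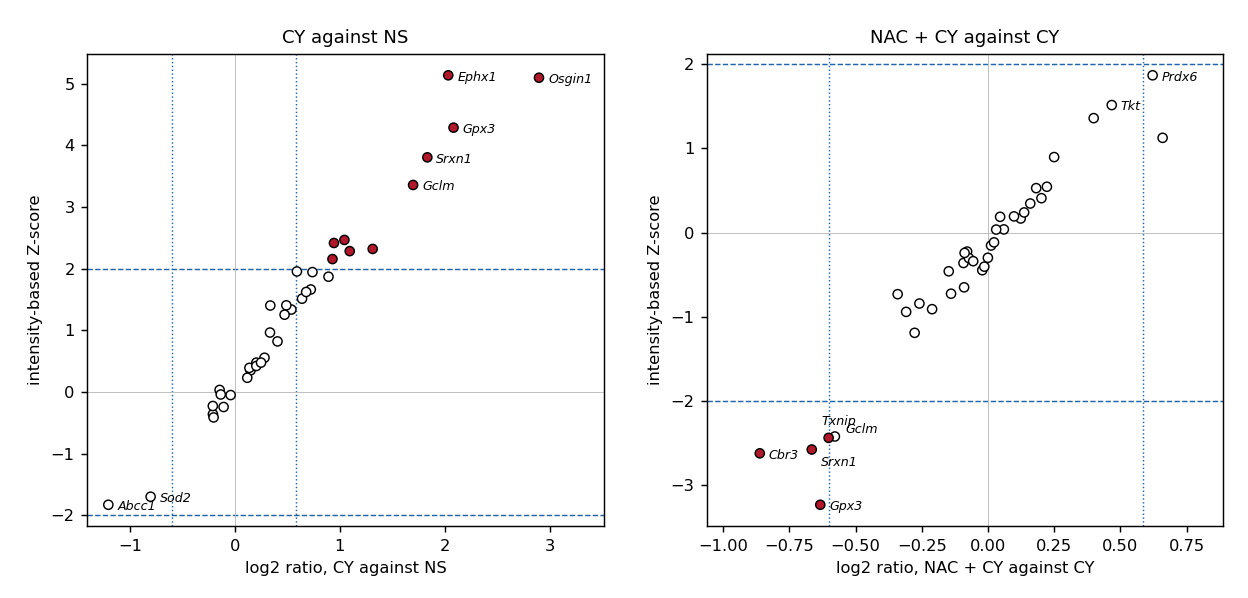
Intensity-based Z-score (vertical axis) against log2 ratio (horizontal axis) of the 38 antioxidant genes, for CY against NS (left) and NAC + CY against CY (right). Each point is 1 gene, filled points were called, and the dashed and dotted blue lines mark the Z-score and ratio criteria. For CY, *Sqstm1*, *Prdx1* and *G6pdx* lie just under the Z-score line and 5 genes lie above a Z-score of 3.

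After acrolein, no antioxidant gene was called higher or lower, where 1.08% of 19700 genes were called higher and 1.29% lower. The median log2 ratio of the 38 members was 0.00, their range was -0.26 (*Tkt*) to 0.42 (*Gpx3*), and none passed the ratio criterion alone in either direction, against 3.97% of all genes above it and 2.87% below. The 10 genes called higher after CY had acrolein log2 ratios between -0.17 (*Srxn1*) and 0.42 (*Gpx3*), with a median of 0.03. *Gpx3* had a Z-score of 3.37, rank 82 of 19700, but a ratio of 1.34 and therefore no call. The Z-score is scaled to the narrower spread of the acrolein array, so the same log2 ratio gives a larger Z-score there than after CY. On the acrolein array 6 of 8 fat cell genes and 7 of 8 mesothelial genes were called lower and 4 of 6 tested neutrophil genes higher. Acrolein and CY were compared with the same NS array, and their doses differ.

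After NAC + CY, 8 of 38 antioxidant genes (21.1%) were called higher than NS and none lower, where 2.68% and 2.59% of 19808 genes were called. The members were *Nqo1*, *Ephx1*, *Osgin1*, *Gclm*, *Srxn1*, *Gpx3*, *Cat* and *Tkt*. Of these, 6 were also among the 10 called after CY, with 1 NS array serving as control for both. The median log2 ratio of the members was 0.42, against -0.01 over all genes, and 15 of 38 passed the ratio criterion upward, against 9.61% of all genes, and none downward, against 9.67%. All 10 genes called after CY had log2 ratios above 0 here, from 0.45 (*Cbr3*) to 2.69 (*Osgin1*). They were chosen for being above this same NS array, so this follows in part from that choice. Nothing is read from that count or from the overlap of 6. *Gclc* (0.75), *Gsr* (0.86) and *Txnrd1* (0.77) stood at Z-scores of 1.77 to 1.90, short of a call. *Tkt* rested on 1 probe, as its other tested probe was not called, at -0.55. That probe was dim, well above background on only 1 array, so its ratio says little. *Nqo1* lost its call with a window of 100 probes. In this comparison 5 of 8 fat cell, 4 of 6 tested neutrophil and 7 of 8 hepatocyte genes were called higher, and 4 of 8 fibroblast genes lower.

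NAC + CY was also set directly against CY, which does not use the NS array. None of the 38 members was called higher and 4 (10.5%) were called lower, where 1.54% of 20083 genes were called higher and 2.82% lower. The lower genes were *Cbr3* (log2 ratio -0.86, Z-score -2.62), *Srxn1* (-0.67, Z-score -2.58), *Gpx3* (-0.63, Z-score -3.24) and *Txnip* (-0.60, Z-score -2.44). *Txnip* had log2 signals of 14.52 after saline, 14.85 after CY, 14.39 after acrolein and 14.25 after NAC + CY, so its call arose from a CY level above NS and a NAC + CY level below it. That call was lost when only the 2 arrays were quantile-normalised together, and the other *Txnip* probe (log2 ratio -0.76, Z-score -1.91) was not called. *Gclm*, at a log2 ratio of -0.58 (Z-score -2.42), was just outside the ratio criterion. By the ratio alone, 2 members were higher (*Abcc1* and *Prdx6*) and 4 lower, against 5.82% and 7.86% of all genes. The 10 genes called higher after CY were chosen by their signal on the CY array used here, so lower values on a further array follow in part from that choice and nothing is read from their count. Their log2 ratios ranged from -0.86 (*Cbr3*) to 0.22 (*Ephx1*). *Osgin1* (-0.21), *Gsr* (-0.07) and *Cat* (-0.06) hardly differed between the arrays. The median over all 38 members was -0.02, and *Tkt* (0.47), *Nqo1* (0.40) and *Prdx6* (0.62, Z-score 1.87) had higher signals on NAC + CY without a call. Several cell type lists moved on the same pair of arrays. Called lower on NAC + CY were 6 of 7 platelet, 7 of 8 mesothelial, 6 of 6 atrial, 3 of 4 tested erythroid, 5 of 8 fibroblast, 4 of 8 macrophage and 3 of 8 smooth muscle genes. Called higher were 6 of 8 hepatocyte, 5 of 8 fat cell and 4 of 6 tested neutrophil genes.

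**Figure D4:**
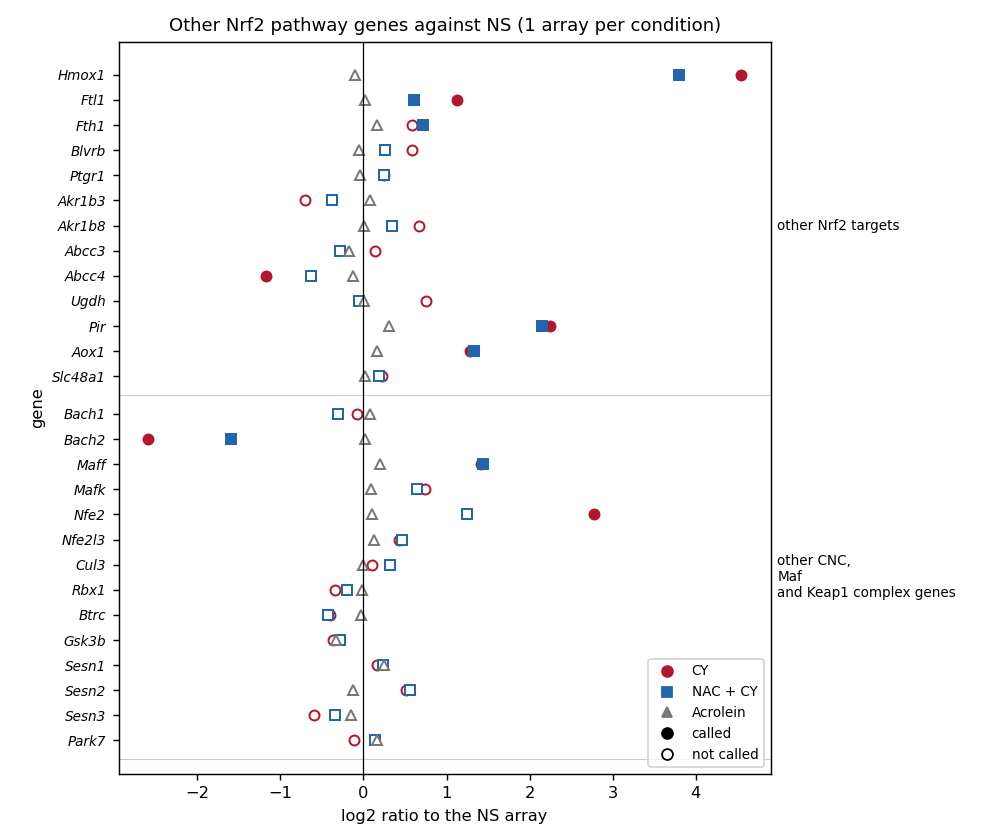
Log2 ratio to the NS array (horizontal axis) of 27 other Nrf2 pathway genes with a probe above background, 1 row per gene in 2 lists, with circles for CY, squares for NAC + CY and triangles for acrolein. Filled symbols were called, open symbols were not called or not tested, and there is 1 array per condition. *Hmox1* reaches 4.54 after CY and lies at -0.10 after acrolein.

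Other genes of the pathway were taken from 6 lists with 83 genes, of which 79 were tested after CY. Of these, 6 were called higher and 3 lower, or 7.59% and 3.80%, against 3.38% and 2.82% of all genes, and their median log2 ratio was 0.02. In the list of other Nrf2 targets, 4 of 13 were called higher and 1 lower. The lists, like the members, were chosen with earlier results of these data known, so these counts are description only. *Hmox1*, the haem oxygenase, had log2 signals of 8.45 after saline, 12.99 after CY, 8.35 after acrolein and 12.24 after NAC + CY, and was called lower on NAC + CY than on CY (-0.75). The iron-binding *Pir* (log2 ratio 2.24), the aldehyde oxidase *Aox1* (1.29) and the ferritin light chain *Ftl1* (1.12) were also called higher after CY. The ferritin heavy chain *Fth1* had a log2 ratio of 0.58, just under the ratio criterion, and the exporter *Abcc4* was called lower (-1.18). Among 14 genes of Nrf2 relatives, small Maf proteins and the Keap1 complex, *Maff* (1.42) was called higher. *Nfe2*, a factor of platelets and red cells, was at least 3.88-fold higher on an array where platelet genes were higher too, and the lymphocyte repressor *Bach2* was at least 4.63-fold lower on an array where 3 of 6 lymphocyte genes were lower.

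The remaining thiol, glutathione and NADPH lists had median log2 ratios of -0.14, 0.00 and -0.08 after CY. Of 18 other thioredoxin, glutaredoxin, peroxidase and methionine sulfoxide reductase genes, 1 was called lower after CY and none higher. This was *Msra*, a methionine sulfoxide reductase, with log2 signals of 12.01 after saline, 10.98 after CY, 12.01 after acrolein and 11.10 after NAC + CY. None of 11 other glutathione cycle genes, 13 other NADPH genes and 10 enzymes that produce oxidants was called after CY. Over all genes 3.38% were called higher and 2.82% lower, and nothing is read from these low counts. By the ratio alone, 2 of these 10 oxidant-producing enzymes were higher and 3 lower after CY, against 11.7% and 10.7% of all genes. After NAC + CY, 6 of 80 tested genes of the 6 lists were called higher than NS (*Hmox1*, *Ftl1*, *Fth1*, *Pir*, *Aox1* and *Maff*) and 3 lower, against 2.68% and 2.59% of all genes. The lower genes were *Msra* (-0.91), the nucleoredoxin *Nxn* (-0.92) and *Bach2*. Against CY alone 2 of 80 were higher and 4 lower, against 1.54% and 2.82% of all genes. The glutathione-degrading *Chac1* (0.68) and the folate enzyme *Aldh1l1* (1.30), which is abundant in liver, were called higher, and *Ncf1* (-1.20), a subunit of the phagocyte NADPH oxidase, lower, beside *Hmox1*, *Nfe2* and the UDP-glucose dehydrogenase *Ugdh* (-0.80). After acrolein, 1 of 78 tested genes of the 6 lists was called, *Rac2* (0.70), another gene of that oxidase. That share of 1.28% was close to the 1.08% of all genes called higher.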

How the data were processed

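Heart RNA was measured on 1 array per condition. The authors scanned the arrays with Agilent Feature Extraction (10.7.1.1 in the file headers, 9.5.1.1 in the submitters' processing notes). Per the file headers, the deposited intensity of a spot had its background subtracted and was not normalised between arrays. The deposited value table holds linear intensity values with equal quantiles over the 4 arrays and served as an alternative. For the present calls, the 59305 spots that are not controls were quantile-normalised on the log2 scale and averaged per probe, leaving out spots flagged as outliers. No spot was saturated. A P flag required a signal that was positive, significant and well above background, without saturation or outlier flags (30409 probes), and a probe was tested when it had this flag on at least 1 of the 2 arrays compared. A bound ("at least") was measured against the lowest signal well above background on the dimmer array. Genes carry the names in the files, and 3 list genes were matched through RefSeq synonyms. The members and lists were chosen with earlier results of these data known. All members were named. Of the other lists, called genes, *Hmox1* and those with the largest ratios were named. The calls were run on simulated arrays with less noise than the spread seen in the comparisons that involve CY. That run therefore says nothing on the error of the calls in those comparisons. In addition, 14 alternatives were run, 1 of them added after the data were seen. The normexp correction (offset 50) used limma 3.58.1 (R 4.3.3). All other steps used numpy 2.4.6, pandas 2.3.3 and scipy 1.17.1 under Python 3.11.15, with figures drawn by matplotlib 3.10.9.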

Additional observations from a re-analysis of the deposited data

How the results depend on the processing

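No antioxidant gene was called after acrolein under any of the 14 alternatives. The shares of all genes called there were low, from 0.24% higher and 0.32% lower with normexp to 3.97% and 2.87% by the ratio alone. A count of 0 is near such shares, and nothing is read from it. A Z-score of 3 left 5 of 38 members higher after CY (*Ephx1*, *Osgin1*, *Gclm*, *Srxn1*, *Gpx3*), against 1.42% of all genes. It left 3 higher after NAC + CY and 1 lower against CY, against 1.24% and 1.35% of all genes. The ratio alone gave 16, 15 and 4, against 11.7%, 9.61% and 7.86%. It also gave 2 lower after CY and 2 higher on NAC + CY than on CY, against 10.7% and 5.82%. The counts of 1, 4 and 2 against CY lay near these shares, and nothing is read from them. The normexp correction gave 2 lower members after CY (*Abcc1*, *Sod2*), against 2.42% of all genes. It gave 1 higher on NAC + CY than on CY (*Prdx6*), against 1.18%. A window of 500 probes also gave 1 higher on NAC + CY than on CY, against 1.42%. A ratio of 2 left 0 lower on NAC + CY than on CY, against 1.70%. The cause of the normexp changes was not tested. In all other alternatives these counts stayed within 1.5 times, the calls of *Ephx1*, *Osgin1* and *Gpx3* against NS held in all 13 other settings that keep 1 value per gene, and no called log2 ratio changed sign. A ratio of 2 also lost *Gsr* and *Cat* after CY and *Cat* and *Tkt* after NAC + CY. Beyond these, calls were lost for *Gsr* (windows of 100 or 500 probes), for *Nqo1* on NAC + CY (window of 100), for *Txnip* against CY (quantile normalisation of the 2 arrays) and for *Tkt* on NAC + CY (median over probes, 0.16). The median for *Tkt* takes in its dim probe. Scaling to the 75th percentile lowered the median of the members after CY to 0.34. Calling a gene by any of its probes, an alternative added after the data were seen, gave 11 after CY and 10 after NAC + CY. No paired analysis was possible because each condition has 1 array. Precision is limited by having 4 arrays, and *Slc7a11*, not well above background, gives no level.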

Other observations

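Antioxidant enzymes with a cytosolic and a mitochondrial form were set side by side, in 7 pairs chosen after their values were seen and therefore given without a test. After CY the cytosolic form had the higher log2 ratio in 6 of 7 pairs, with a median difference of 0.64. *Sod1* stood at 0.47 and the mitochondrial *Sod2* at -0.81. *Txn1* and *Txn2* stood at 0.34 and -0.30, *Txnrd1* and *Txnrd2* at 1.04 and -0.40, and *Prdx1* and *Prdx3* at 0.59 and -0.20. The isocitrate dehydrogenases *Idh1* and *Idh2* stood at 0.25 and -0.24, and the malic enzymes *Me1* and *Me3* at 0.20 and -0.38. The glutaredoxins were the exception, with *Glrx* at -0.04 and *Glrx2* at 0.06. Of these 14 genes only *Txnrd1* was called after CY. After NAC + CY the cytosolic form was again higher in 6 of 7 pairs (median difference 0.43), on the same NS array. After acrolein it was higher in 3 of 7 (median difference -0.05), and on NAC + CY against CY in 0 of 7 (median difference -0.21). Other forms were left out of the pairs, such as *Prdx2* (-0.21 after CY) and *Me2* (-0.08), so nothing is read from these counts.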
